A study of Mus musculus with 9 samples.

Results

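Interferon stimulated genes are the genes that cells switch on when an interferon binds its receptor. A list of 40 of them, named by symbol, was followed here through resting mouse spleen, and all 40 were found among the 14862 genes of the expression table. RNA came from 3 kinds of splenic dendritic cell, sorted from C57Bl/6 mice that were 8 to 12 weeks old, with 3 libraries each of cDC1, cDC2 and the subset labelled mcDC, whose name the labels do not spell out. All the groups share this strain, tissue and age range, no genotype or treatment is named for any of them, and the sources used here do not give the surface markers of the sort. Whether the 3 libraries of a group stem from different mice is not stated, so the p-values below rest on a spread that may be technical.

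Type I interferons bind a receptor of the chains IFNAR1 and IFNAR2, whose kinases TYK2 and JAK1 set off the assembly of ISGF3, a complex that includes STAT2 and IRF9. ISGF3 binds the interferon stimulated response element (ISRE) in the promoters of its target genes. Interferon gamma instead acts through IFNGR1, IFNGR2, JAK1 and JAK2 on genes that carry the gamma activated site (GAS). The products block viral entry, translation and replication, attack the vacuoles of intracellular microbes, tag proteins with ISG15, or feed back on the pathway itself. Even without infection many tissues keep a low, tonic level of these transcripts. Dendritic cells sense and present microbes, cDC1 being known for cross-presentation to CD8 T cells and cDC2 for presentation to CD4 T cells.

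The subsets' defining transcripts were in the libraries where the labels put them, with 8 of 8 cDC1 markers higher and 6 of 7 cDC2 markers lower in cDC1 than in cDC2. Xcr1 was 131 to 174 RPKM (reads per kilobase of gene per M reads) in cDC1, 1.95 to 2.81 in cDC2 and 10.3 to 19.4 in mcDC, and Sirpa was 11.5 to 43.0, 267 to 278 and 145 to 213. The cDC1 libraries held 9.69 to 11.01 M reads, the cDC2 libraries 9.19 to 12.43 M and the mcDC libraries 5.14 to 8.23 M, and a single read over 1 kb equalled 0.08 to 0.194 RPKM. Genes taken as markers of other cell types were unequal between the subsets. Whether other cells or the dendritic cells themselves held these transcripts was not tested. Over 13 neutrophil genes the summed level was 15.0 to 48.9 RPKM in cDC1, 197 to 1710.3 in cDC2 and 40.9 to 56.8 in mcDC, and cDC2 replicates 2 and 3 held most of it. Camp was at 0 in all 3 mcDC libraries and in cDC1 replicate 1. Monocyte genes (13) summed to 328 to 507 RPKM in cDC1, 1542 to 2381 in cDC2 and 672 to 869 in mcDC. Lyz2 alone was 698 to 1462 RPKM in cDC2, and Treml4 ran the other way, at 95.7 to 111 in cDC1 and 54.0 to 69.1 in cDC2. Macrophage genes (12) summed to 439 to 821 RPKM in mcDC against 119.7 to 167 in cDC1 and 197 to 236 in cDC2. Plasmacytoid dendritic cell genes (8) summed to 43.7 to 99.0 RPKM in cDC1, 51.2 to 60.2 in cDC2 and 75.03 to 87.25 in mcDC, with Siglech at 16.8, 4.35 and 4.98 in the cDC1 libraries. NK cell genes (7) summed to 38.4 to 59.0, 26.5 to 47.2 and 67.9 to 164.8 RPKM in the same order. The part of these transcripts in the differences between subsets was not tested, and counts of calls in a fit without cDC2 replicates 2 and 3 are given below.

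Promoter sequence shows how members of the list resemble each other apart from their levels. Windows of 300 bases, from 250 before to 50 after the gene start, were taken from RefSeq (GRCm38.p6) and were at hand for 33 of the 40 members. The ISRE core was searched as GAAA, any 2 bases and GAAA again, and the GAS core as TTC, any 3 bases and GAA, both on either strand. The ISRE core occurred in 14 of the 33 members (42.4%), in 4.05% of the 9545 tested genes with a window and in 3.44% of all 32851 windows. Among members with a window it was found in 10 of the 14 that were lower in cDC1 than in cDC2, in 1 of the 3 that were higher, Trim30a, and in 3 of the 16 that were not called. The matching shares of all genes called lower, called higher or not called were not taken, and a link of the core to the calls was not tested. The called members with a window but no ISRE core were Cmpk2, Ifi47, Ifit2 and Xaf1, lower in cDC1, and Epsti1 and Irf1, higher. No window was at hand for Rtp4, Usp18, Parp9, Parp14, Mx1, Mx2 and Iigp1. The GAS core occurred in 8 of the 33 members (24.2%), in 8.41% of tested genes and in 8.30% of all windows. These are matches of letters, and no binding was measured here.

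The stretches below hold matches in some of the members with a match. First come Ifit1, Ifit3, Ddx60, Rsad2, Gbp3 and Irgm1, which were lower in cDC1. Isg15, which was not called, follows, and then Trim30a and Irf1, which were higher in cDC1. Each stretch is read 5′ to 3′ along the strand of its gene. Capitals mark the ISRE core or its reverse complement, except in Irf1, where they mark the GAS core.
Ifit1 (chr19:34640769-34640848, plus strand, bases -120 to -41 from the gene start): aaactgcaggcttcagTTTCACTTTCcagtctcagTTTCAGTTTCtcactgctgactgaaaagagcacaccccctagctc
Ifit3 (chr19:34583372-34583451, plus strand, bases -157 to -78 from the gene start): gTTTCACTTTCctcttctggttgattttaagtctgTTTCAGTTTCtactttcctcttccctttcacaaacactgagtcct
Ddx60 (chr8:61928033-61928086, plus strand, bases -54 to -1 from the gene start): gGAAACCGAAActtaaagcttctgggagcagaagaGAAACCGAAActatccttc
Rsad2 (chr12:26456528-26456607, minus strand, bases -155 to -76 from the gene start): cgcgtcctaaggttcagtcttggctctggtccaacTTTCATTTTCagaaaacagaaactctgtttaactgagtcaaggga
Gbp3 (chr3:142559970-142560043, plus strand, bases -74 to -1 from the gene start): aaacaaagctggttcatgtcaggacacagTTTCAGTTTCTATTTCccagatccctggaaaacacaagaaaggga
Irgm1 (chr11:48871421-48871479, minus strand, bases -59 to -1 from the gene start): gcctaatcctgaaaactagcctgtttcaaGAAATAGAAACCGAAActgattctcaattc
Isg15 (chr4:156200840-156200919, minus strand, bases -101 to -22 from the gene start): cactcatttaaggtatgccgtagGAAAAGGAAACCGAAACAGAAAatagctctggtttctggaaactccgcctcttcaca
Trim30a (chr7:104465194-104465264, minus strand, bases -71 to -1 from the gene start): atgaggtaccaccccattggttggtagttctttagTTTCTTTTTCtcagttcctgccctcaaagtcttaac
Irf1 (chr11:53769889-53769967, plus strand, bases -125 to -47 from the gene start): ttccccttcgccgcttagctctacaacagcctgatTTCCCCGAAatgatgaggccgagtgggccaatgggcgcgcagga
Ifit1, Ifit3, Ddx60, Gbp3 and Irgm1 each carried 2 cores within this stretch. In Gbp3, Irgm1 and Isg15 the cores overlapped and formed a longer run of the repeated unit, and Isg15, with 3 cores, had the most.

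Resting cDC1 held less RNA than cDC2 for many of these genes. By limma on log2(RPKM + 1), at an adjusted p of 0.05 over all 11971 genes tested, 22 of the 40 members were called between the subsets, 18 lower and 4 higher in cDC1. Of all genes tested 19.6% were called, 10.7% lower and 8.85% higher in cDC1. The members lower in cDC1 included 3 IFIT genes (Ifit1, Ifit2 and Ifit3), the effectors Rtp4, Ifitm3 and Ddx60 and the GTPases Ifi47, Gbp3, Igtp and Irgm1, and those higher were Epsti1, Mx1, Irf1 and Trim30a. At least 2-fold differences were called for 12 members lower and 2 higher, where 6.22% and 4.86% of all genes met the same rule. The libraries follow 3 runs of consecutive titles with 1 library of each subset in a run, and with the run as a block in the fit 26 members were called, 21 lower and 5 higher, and 24.6% of all genes. The members added with the block were Isg20, Sp100, Iigp1 and Lgals3bp. Fold changes are given for cDC1 against cDC2 in the paragraphs by role, on the log2(RPKM + 1) scale with ± SE, and this scale understates the change of scarce genes. The median log2 fold change was -0.52 over the members and -0.02 over all genes tested. Counted by overlap alone, 26 members had all cDC1 libraries below all cDC2 libraries (24.6% of genes tested) and 6 had them above (21.5%). In sorted bulk samples, fewer cells expressing a gene and less RNA per cell cannot be told apart.

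**Figure D1:**
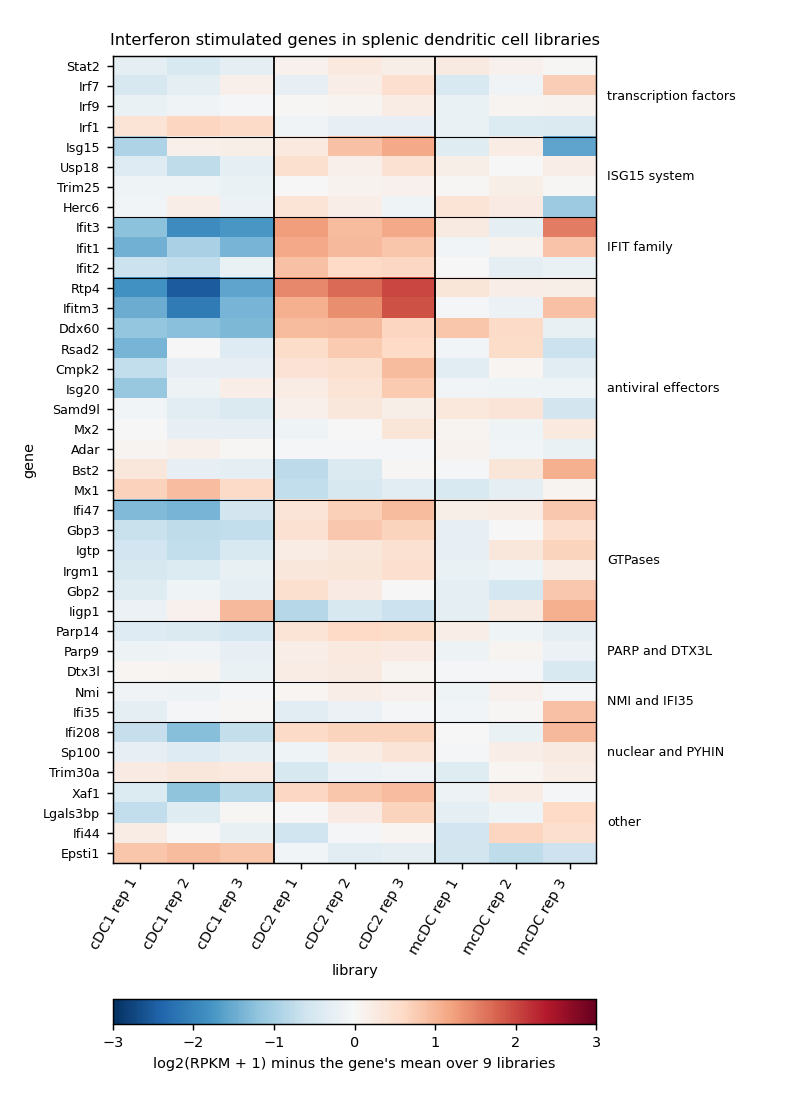
Level of the 40 interferon stimulated genes in each library, as log2(RPKM + 1) minus the gene's mean over 9 libraries (colour scale), with genes in rows by role and libraries in columns by subset. The IFIT genes, Rtp4, Ifitm3 and Ddx60 are blue in all 3 cDC1 libraries and red in all 3 cDC2 libraries, while Epsti1, Mx1 and Irf1 run the other way.

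Of the 4 transcription factors of the list, 1 was higher and 1 lower in cDC1 than in cDC2. Irf1, an interferon gamma target that itself binds response elements, was 108, 128 and 122 RPKM in cDC1, against 75.6, 69.0 and 68.6 in cDC2 and 70.6, 61.3 and 59.7 in mcDC. Every cDC1 library stood above every other library (log2 fold change 0.74 ± 0.11, adjusted p = 0.0014). Stat2, a subunit of ISGF3, was 38.7, 34.5 and 39.3 RPKM in cDC1, against 52.0, 58.5 and 54.0 in cDC2 and 57.5, 52.5 and 48.5 in mcDC, and it was lower in cDC1 without overlap (log2 fold change -0.54 ± 0.11, adjusted p = 0.0072). Irf9, the DNA-binding part of ISGF3, was 47.0, 49.97 and 52.9 RPKM in cDC1, against 54.9, 57.5 and 63.0 in cDC2 and 46.5, 57.4 and 57.9 in mcDC. The cDC1 and cDC2 libraries did not overlap, but the difference was small and not called (log2 fold change -0.22 ± 0.12, adjusted p = 0.26, 95% interval -0.49 to 0.05). Irf7, which amplifies interferon production, ranged from 50.9 to 79.2 in cDC1, from 59.4 to 100.2 in cDC2 and from 51.4 to 118 in mcDC. Replicate 1 was lowest and replicate 3 highest in each subset, and no difference was called (log2 fold change -0.35 ± 0.31, adjusted p = 0.53).

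In the ISG15 system, 1 of 4 members was called. Usp18 encodes the protease that removes ISG15 and restrains IFNAR2 signalling, and it was 15.0, 11.4 and 16.0 RPKM in cDC1, against 28.3, 22.1 and 27.7 in cDC2 and 22.6, 19.98 and 23.1 in mcDC. Its cDC1 libraries were all the lowest (log2 fold change -0.84 ± 0.16, adjusted p = 0.0041). Isg15, the ubiquitin-like modifier itself, was 7.33, 16.7 and 17.1 RPKM in cDC1, against 18.5, 28.3 and 34.2 in cDC2 and 11.4, 17.6 and 4.37 in mcDC. The lowest value, in mcDC replicate 3, rested on 17 reads, and although every cDC1 library lay below every cDC2 library the difference was not called (log2 fold change -0.98 ± 0.46, adjusted p = 0.2). Trim25, a ubiquitin and ISG15 ligase, was between 16.3 and 17.2 RPKM in cDC1, between 18.5 and 20.7 in cDC2 and between 19.2 and 21.3 in mcDC. Herc6, the mouse ISG15 ligase, was between 8.65 and 11.4, 8.95 to 13.4 and 4.08 to 13.3 RPKM in the same order. Neither was called, with 95% intervals of -0.47 to 0.02 and -0.97 to 0.61 for the log2 difference of cDC1 against cDC2.

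All 3 IFIT genes, whose products bind foreign RNA and block its translation, were lower in cDC1. Ifit1 was 0.516, 1.10 and 0.547 RPKM in cDC1, against 7.95, 6.97 and 6.28 in cDC2 and 2.85, 3.40 and 6.404 in mcDC. Ifit3 was 1.68, 0.681 and 0.877 RPKM in cDC1, against 14.04, 11.0 and 12.8 in cDC2 and 6.50, 4.14 and 17.3 in mcDC. Neither gene's cDC1 libraries reached any library of the other subsets, and the mean level in cDC2 was 9.80-fold that of cDC1 for Ifit1 and 11.7-fold for Ifit3 (log2 fold change -2.24 ± 0.26, adjusted p = 0.00028 and log2 fold change -2.73 ± 0.40, adjusted p = 0.0011). These cDC1 values rested on few reads, from 14 for Ifit1 and from 15 for Ifit3 in the lowest library. Ifit2 was 3.56, 3.24 and 5.17 RPKM in cDC1, against 12.1, 9.75 and 9.93 in cDC2 and 6.03, 4.82 and 5.21 in mcDC, with no overlap between cDC1 and cDC2 (log2 fold change -1.23 ± 0.18, adjusted p = 0.0012). Ifit3 has a close copy, Ifit3b, named here for that likeness, which was also lower in cDC1 (log2 fold change -1.76 ± 0.25, adjusted p = 0.00082; 0.06 without cDC2 replicates 2 and 3), and how reads common to both were counted was not given in the sources used here.

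**Figure D2:**
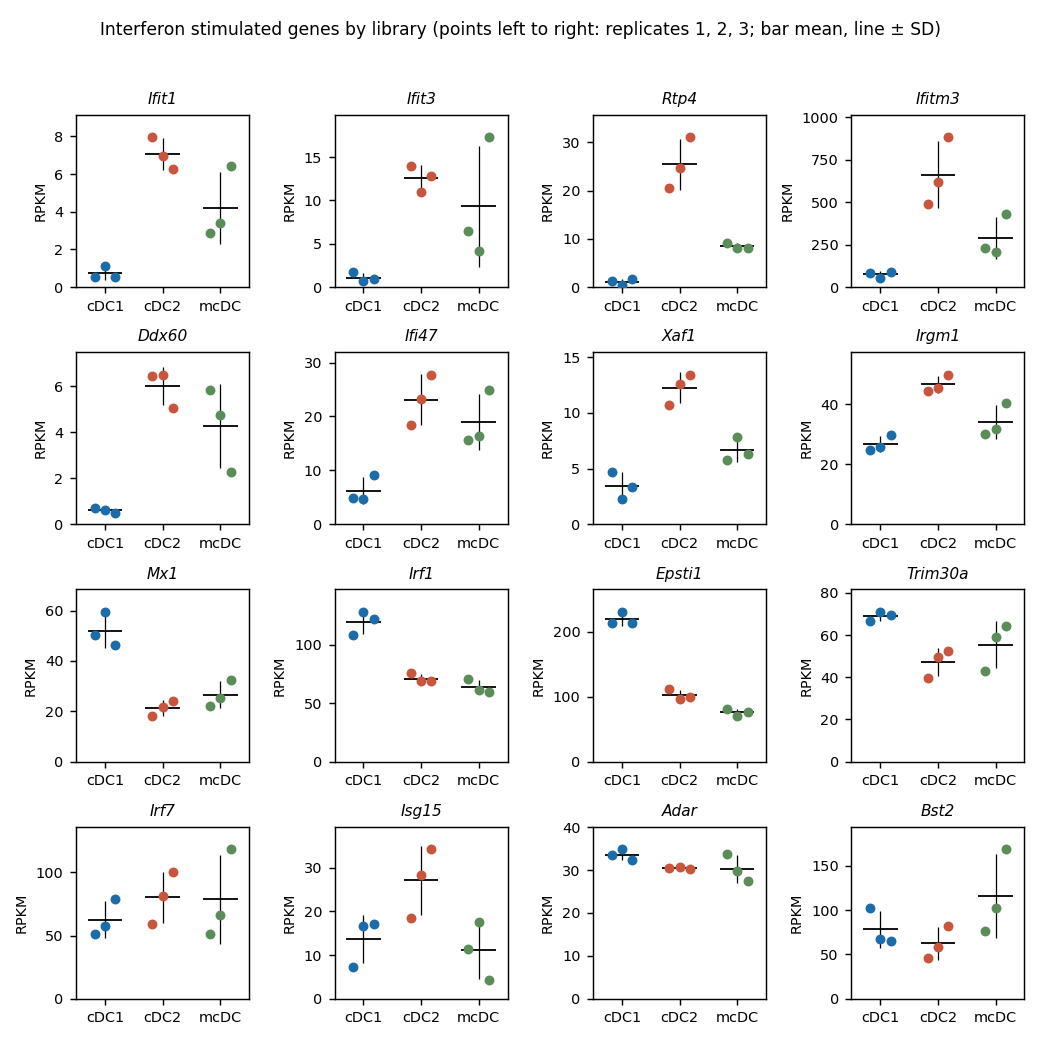
RPKM of 16 members in each library, by subset, with points for replicates 1, 2 and 3 from left to right, a bar at the mean and a line of ± 1 SD. The cDC1 points of Ifit1, Ifit3, Rtp4, Ifitm3 and Ddx60 lie below all others, those of Mx1, Irf1, Epsti1 and Trim30a lie above, and those of Irf7 and Adar are among the rest.

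Among 11 antiviral effectors, 5 were lower and 1 was higher in cDC1. Rtp4, an interferon-induced chaperone of membrane receptors, showed the widest gap of the list, at 1.27, 0.404 and 1.64 RPKM in cDC1, against 20.6, 24.7 and 31.1 in cDC2 and 9.18, 8.11 and 8.02 in mcDC. The cDC2 mean was 23.1-fold the cDC1 mean, and the 3 subsets did not overlap (log2 fold change -3.68 ± 0.25, adjusted p = 1.2e-05). Ifitm3, which blocks the fusion of viruses in endosomes, was 83.5, 53.5 and 88.3 RPKM in cDC1, against 490.3, 616 and 882 in cDC2 and 229.7, 208 and 432 in mcDC. Its libraries fell into 3 separate ranges as well, and it was the most abundant member in cDC2 and in mcDC but ranked 4 in cDC1 (log2 fold change -3.12 ± 0.32, adjusted p = 0.00013). Ddx60, an RNA helicase, was 0.727, 0.620 and 0.499 RPKM in cDC1, against 6.46, 6.50 and 5.04 in cDC2 and 5.81, 4.73 and 2.27 in mcDC, with cDC1 lowest throughout and mcDC replicate 3 well below the other mcDC libraries (log2 fold change -2.11 ± 0.27, adjusted p = 0.00045).

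Rsad2 and Cmpk2 are neighbouring genes with no coding gene between them, and their products, viperin and a nucleotide kinase, act together on nucleotide pools. Rsad2 was 0.984, 4.24 and 2.997 RPKM in cDC1, against 6.66, 8.00 and 6.94 in cDC2 and 3.98, 6.64 and 2.36 in mcDC. Cmpk2 was 1.48, 2.503 and 2.49 RPKM in cDC1, against 4.67, 4.79 and 7.03 in cDC2 and 2.32, 3.32 and 2.31 in mcDC. For both, all cDC1 libraries were below all cDC2 libraries and mcDC overlapped cDC1 (log2 fold change -1.24 ± 0.38, adjusted p = 0.048 and log2 fold change -1.04 ± 0.23, adjusted p = 0.0096). Among the mcDC libraries replicate 2 was the highest for each gene. The call for Rsad2 was lost (adjusted p 0.054 to 0.15) when any cDC2 library, cDC1 replicate 1 or 3, or mcDC replicate 1 was left out.

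Mx1 ran the other way. It encodes a dynamin-like GTPase that blocks influenza virus, and it was 50.1, 59.5 and 46.4 RPKM in cDC1, against 17.9, 21.8 and 23.9 in cDC2 and 22.0, 25.2 and 32.5 in mcDC. All cDC1 libraries were above all others, and the cDC1 mean was 2.45-fold that of cDC2 (log2 fold change 1.25 ± 0.17, adjusted p = 0.00068). RefSeq lists Mx1 and its neighbour Mx2 as transcribed pseudogenes in the C57BL/6J reference, so a transcript here need not give a working protein. Mx2 was 2.99 to 3.82 RPKM in cDC1, 3.35 to 5.10 in cDC2 and 3.35 to 4.83 in mcDC, with overlap throughout (log2 fold change -0.24 ± 0.20, adjusted p = 0.49). The remaining effectors were not called without the block. Isg20, an RNA exonuclease, had no overlap between cDC1 (2.04 to 6.58 RPKM) and cDC2 (6.78 to 10.4) but did not pass (log2 fold change -0.84 ± 0.31, adjusted p = 0.093, and 0.043 with the run as a block). Samd9l, a translational repressor, was lower in all cDC1 than in all cDC2 libraries (log2 fold change -0.51 ± 0.23, adjusted p = 0.17). Adar, the RNA-editing deaminase, was between 32.4 and 34.9 RPKM in cDC1 and between 30.2 and 30.7 in cDC2, a difference with a 95% interval of -0.11 to 0.38. Bst2 (tetherin), which holds budding virus at the cell surface, was 102, 66.9 and 65.6 RPKM in cDC1, against 46.1, 58.9 and 82.2 in cDC2 and 76.5, 102 and 169 in mcDC. Its highest cDC1 value was in replicate 1, the cDC1 library with the most Siglech, and a link between them was not tested.

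The interferon-inducible GTPases act on the vacuoles in which microbes live. Of 6, 4 were lower in cDC1. Ifi47 was 4.87, 4.65 and 9.18 RPKM in cDC1, against 18.5, 23.2 and 27.8 in cDC2 and 15.6, 16.4 and 24.9 in mcDC (log2 fold change -1.77 ± 0.27, adjusted p = 0.0012). Gbp3 was 2.41, 2.20 and 2.26 RPKM in cDC1, against 6.47, 8.55 and 7.62 in cDC2 and 3.59, 4.41 and 6.66 in mcDC (log2 fold change -1.37 ± 0.21, adjusted p = 0.0013). Irgm1, a regulator of the family, was 24.7, 25.9 and 29.9 RPKM in cDC1, against 44.6, 45.5 and 49.98 in cDC2 and 30.2, 31.7 and 40.6 in mcDC (log2 fold change -0.78 ± 0.14, adjusted p = 0.0031). In each of these the cDC1 libraries were the lowest of all 9. Igtp (IRGM3) was 9.02, 8.03 and 9.84 RPKM in cDC1, against 16.3, 17.8 and 19.4 in cDC2 and 11.6, 17.9 and 22.8 in mcDC and showed the same arrangement (log2 fold change -0.92 ± 0.21, adjusted p = 0.014), although the call was lost without cDC1 replicate 2, cDC2 replicate 2 or cDC2 replicate 3 (adjusted p 0.051 to 0.062). Gbp2 was 11.3 to 13.4 RPKM in cDC1 and 14.5 to 20.8 in cDC2, and it was not called (log2 fold change -0.48 ± 0.30, adjusted p = 0.35), with mcDC spread from 9.88 to 26.5. Iigp1 was scarce, 0.872, 1.34 and 3.14 RPKM in cDC1, against 0.174, 0.528 and 0.360 in cDC2 and 0.739, 1.55 and 3.42 in mcDC. It was the one GTPase with all cDC1 libraries above all cDC2 libraries, on as few as 5 reads, and it was not called (log2 fold change 0.96 ± 0.38, adjusted p = 0.12) except with the run as a block (adjusted p = 0.035).

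Parp14, Dtx3l and Parp9 lie next to each other on the chromosome. PARP14 and PARP9 belong to the ADP-ribosyltransferases, and DTX3L is the ubiquitin ligase partner of PARP9. Parp14 was 18.5, 17.9 and 16.8 RPKM in cDC1, against 32.9, 37.6 and 36.2 in cDC2 and 28.4, 22.5 and 20.01 in mcDC, and its cDC2 mean was 2.01-fold the cDC1 mean (log2 fold change -0.97 ± 0.14, adjusted p = 0.00095). Parp9 was 21.3, 22.0 and 19.9 RPKM in cDC1, against 27.3, 29.4 and 28.4 in cDC2 and 21.3, 25.1 and 21.0 in mcDC, a smaller gap without overlap of cDC1 and cDC2 (log2 fold change -0.41 ± 0.11, adjusted p = 0.029), and the call was lost when any 1 of those 6 libraries was left out (adjusted p 0.064 to 0.12). Dtx3l was 23.9, 24.3 and 19.6 RPKM in cDC1, against 26.6, 27.7 and 24.2 in cDC2 and 22.2, 22.3 and 16.5 in mcDC, with overlap and no call (log2 fold change -0.21 ± 0.15, adjusted p = 0.42). The size of the difference thus varied among 3 adjacent genes, and the one not called, Dtx3l, lies in the middle. Its 95% interval of -0.54 to 0.13 includes the Parp9 estimate.

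Of the remaining members, 4 were called. Ifi208, a PYHIN-family gene, was 2.37, 1.24 and 2.31 RPKM in cDC1, against 7.10, 7.70 and 7.72 in cDC2 and 4.43, 3.73 and 9.69 in mcDC (log2 fold change -1.54 ± 0.30, adjusted p = 0.0055). Xaf1, a cofactor of cell death, was 4.72, 2.27 and 3.33 RPKM in cDC1, against 10.8, 12.6 and 13.5 in cDC2 and 5.79, 7.88 and 6.35 in mcDC (log2 fold change -1.61 ± 0.22, adjusted p = 0.00065). The cDC1 libraries were the lowest in both. Trim30a, a TRIM-family regulator of inflammatory signalling, was 66.6, 71.0 and 69.6 RPKM in cDC1, against 39.7, 49.5 and 52.5 in cDC2 and 43.1, 59.0 and 64.2 in mcDC, with all cDC1 libraries highest but by a narrow margin over mcDC replicate 3 (log2 fold change 0.55 ± 0.16, adjusted p = 0.041). Its call was lost without any 1 of the cDC1 or cDC2 libraries or mcDC replicate 2 (adjusted p 0.057 to 0.16). Epsti1, named for its induction in epithelial cells by contact with stroma, was 214, 231 and 214 RPKM in cDC1, against 112, 96.4 and 99.5 in cDC2 and 80.9, 69.7 and 76.8 in mcDC. It was the most abundant member in cDC1, and its cDC1 libraries were all above its cDC2 libraries, which were all above its mcDC libraries (log2 fold change 1.09 ± 0.11, adjusted p = 0.00011). Sp100 (log2 fold change -0.45 ± 0.15, adjusted p = 0.06), Lgals3bp (log2 fold change -0.65 ± 0.28, adjusted p = 0.15), Ifi44 (log2 fold change 0.21 ± 0.34, adjusted p = 0.76) and the partners Nmi (log2 fold change -0.23 ± 0.11, adjusted p = 0.22) and Ifi35 (log2 fold change 0.07 ± 0.23, adjusted p = 0.89) were not called. With the run as a block Lgals3bp (adjusted p = 0.0022) and Sp100 (adjusted p = 0.025) were called lower in cDC1. Ifi208 and Trim30a belong to families of close copies, so their reads may be split among relatives.

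**Figure D3:**
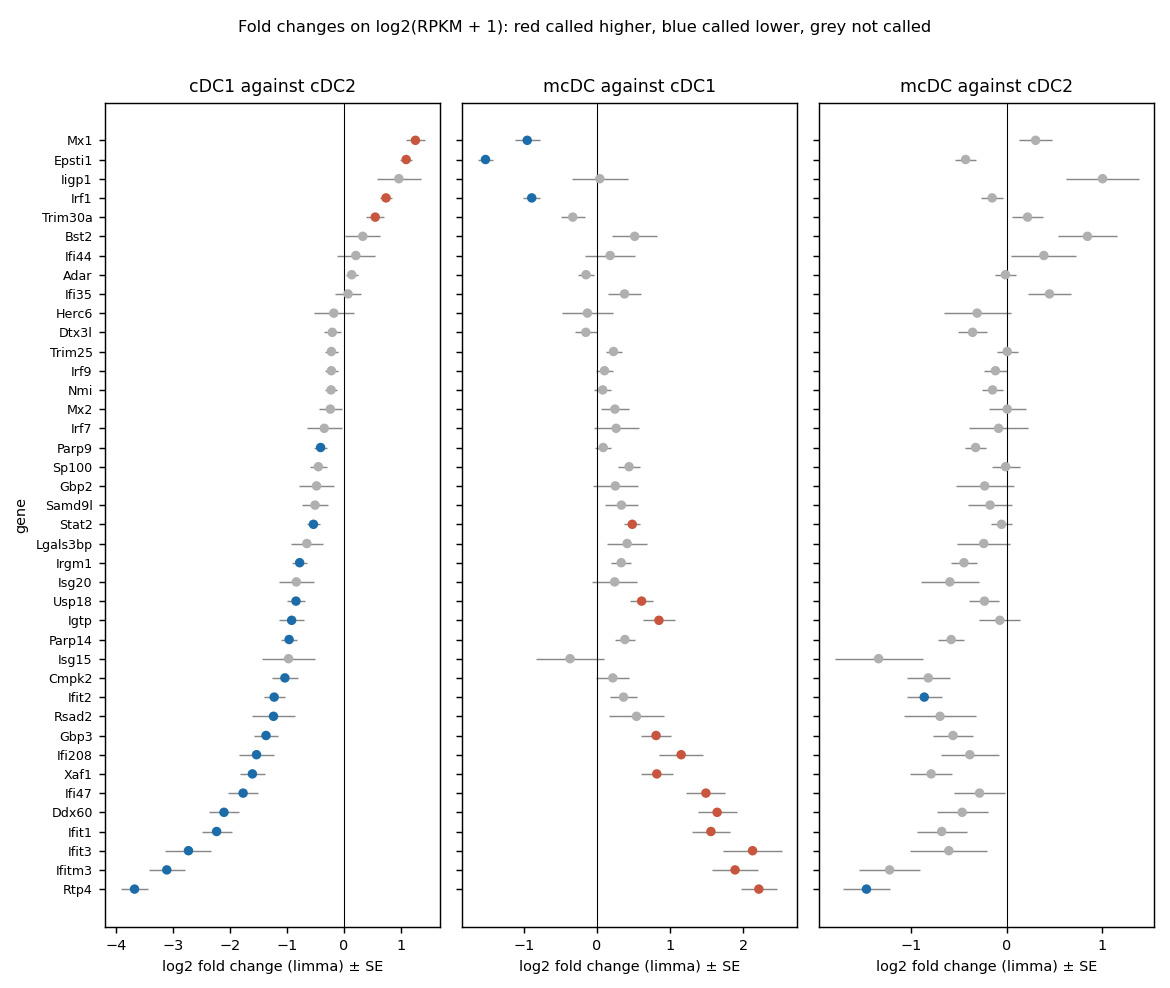
Log2 fold change (limma, on log2(RPKM + 1)) ± SE of each member in the 3 comparisons, with genes ordered by cDC1 against cDC2. Points called higher are red, called lower blue and not called grey: 18 are blue and 4 red for cDC1 against cDC2, 12 red and 3 blue for mcDC against cDC1, and 2 blue for mcDC against cDC2.

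With cDC2 replicates 2 and 3 left out, which held most of the neutrophil transcripts, 8 members were called between cDC1 and the 1 remaining cDC2 library, taken to vary like the other subsets. They were Ifit1, Ifit2, Ifit3, Rtp4, Ifitm3, Ddx60, Mx1 and Epsti1, and 5.61% of all genes were called in that fit. The median log2 fold change over the members was -0.45 there, against -0.52 with all libraries. The cDC2 library kept, replicate 1, still summed to 197 RPKM of neutrophil genes, against 15.0 to 48.9 in cDC1. Its monocyte genes summed to 1542 RPKM, against 328 to 507 in cDC1, so this fit does not remove such transcripts. The 14 members whose call was lost had fold changes on the log2 scale of 0.829 to 1.43 times those with all libraries (adjusted p 0.065 to 0.46). Of the 18 members called lower in cDC1, replicate 1 was the lowest cDC2 library for 13 and the highest for 4. The matching share of all genes was not taken, so whether this is particular to the members is not known.

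Compared with cDC1, mcDC held more RNA for 12 members and less for 3. Of all genes tested 15.4% were called, 9.53% higher and 5.88% lower in mcDC. At least 2-fold differences were called for 7 members higher and 1 lower (5.08% and 3.08% of all genes). The higher members were Rtp4, Ifit3, Ifitm3, Ddx60, Ifit1, Ifi47, Ifi208, Igtp, Xaf1, Gbp3, Usp18 and Stat2, in falling order of the fold change. This comparison shares its cDC1 libraries with the one above, so the 2 are not independent. The largest of these were Rtp4 (log2 fold change 2.21 ± 0.25, adjusted p = 0.00038), Ifit3 (log2 fold change 2.13 ± 0.40, adjusted p = 0.0068) and Ifitm3 (log2 fold change 1.89 ± 0.32, adjusted p = 0.0038). The lower members were Epsti1 (log2 fold change -1.52 ± 0.11, adjusted p = 3.9e-05), Mx1 (log2 fold change -0.95 ± 0.17, adjusted p = 0.0051) and Irf1 (log2 fold change -0.89 ± 0.11, adjusted p = 0.00081). The median log2 fold change was 0.33 over members and 0.09 over all genes tested. With median-of-ratios scaling it was 0.23 over members and close to 0 over all genes, so about 0.1 of the log2 difference goes with the scaling of mcDC libraries. Without overlap (30.5% of genes tested), 16 members were higher in mcDC (19.5%) and 4 lower (11%). Without cDC1 replicate 2 the count went from 15 to 9 (7.99% of all genes), with the calls for Stat2, Usp18, Xaf1, Gbp3, Igtp and Ifi208 lost (adjusted p 0.087 to 0.12). Of these 6, all but Stat2 were also lost when some other single library was left out (adjusted p 0.05 to 0.095). The count was also 9 under quantile normalization (15.1% of all genes), in a fit of these groups alone (9.28%) and without cDC2 replicates 2 and 3 (9.15%). Ifit1, Ifit3, Ifitm3, Rtp4, Ddx60, Ifi47, Mx1, Irf1 and Epsti1 kept their call under each alternative tried.

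Between mcDC and cDC2, 2 members were called in limma, Ifit2 (log2 fold change -0.86 ± 0.18, adjusted p = 0.035) and Rtp4 (log2 fold change -1.47 ± 0.25, adjusted p = 0.011), both lower in mcDC and without overlap, where 3.66% of all genes were called and 1.6% in that direction. Of the 2, Rtp4 was at least 2-fold lower (1.09% of all genes, and 1.58% were at least 2-fold higher). None was called higher (2.06% of genes tested), and 15 members had an unadjusted p under 0.05, where 16.7% of all genes did. The median log2 fold change was -0.26 over members and 0.06 over all genes. Groups did not overlap for 21.6% of genes tested. In 13 members all mcDC libraries lay below all cDC2 libraries (7.7% of genes tested), among them Ifitm3 (log2 fold change -1.23 ± 0.32, adjusted p = 0.075), Cmpk2 (log2 fold change -0.82 ± 0.23, adjusted p = 0.089) and Epsti1 (log2 fold change -0.43 ± 0.11, adjusted p = 0.066), and in 1, Iigp1, they lay above (13.9%). The count moved between 0 and 7 as single libraries were left out. It was 0 without cDC2 replicate 2 (1.32% of all genes) or without cDC2 replicate 3 (1.57%). It was 7 without mcDC replicate 3 (4.37%) and 4 without mcDC replicate 1 (7.56%). It was 1 without cDC1 replicate 1 (3.33%), cDC1 replicate 2 (2.58%), cDC2 replicate 1 (2.34%) or mcDC replicate 2 (2.5%). With the run as a block 6 members were called, all lower in mcDC, where 6.46% of all genes were called and 2.6% in that direction. Beside Ifit2 and Rtp4 these were Ifitm3 (adjusted p = 0.0092), Irgm1 (adjusted p = 0.032), Epsti1 (adjusted p = 0.037) and Parp14 (adjusted p = 0.042). Voom on the recovered reads called 6 (3.67% of all genes), namely Ifit2, Rtp4, Ifitm3, Epsti1, Xaf1 and Parp14, all lower in mcDC.

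In order of mean RPKM, 26 of the 40 members ran from cDC2 through mcDC down to cDC1, and the share of all genes in this order was not taken. All 18 members called lower in cDC1 had an mcDC mean between the other subsets on the log2 scale, as did 78.2% of the 1285 genes called in that direction. Taking cDC1 as 0% and cDC2 as 100%, mcDC stood at a median of 60.3% of the distance over these members and of 72.9% over all those genes. The members differed widely around that median. Parp9 and Cmpk2 were nearest cDC1, at 20.7% and 20.8%, and Ifit2 stood at 29.6%. Stat2 and Igtp were nearest cDC2, at 89.7% and 92.0%, and Ifi47 stood at 83.9%. Of the 4 members higher in cDC1, Mx1 and Trim30a lay between at 76.0% and 60.4%, while Irf1 and Epsti1 passed the cDC2 level, at 121% and 139.5%.

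**Figure D4:**
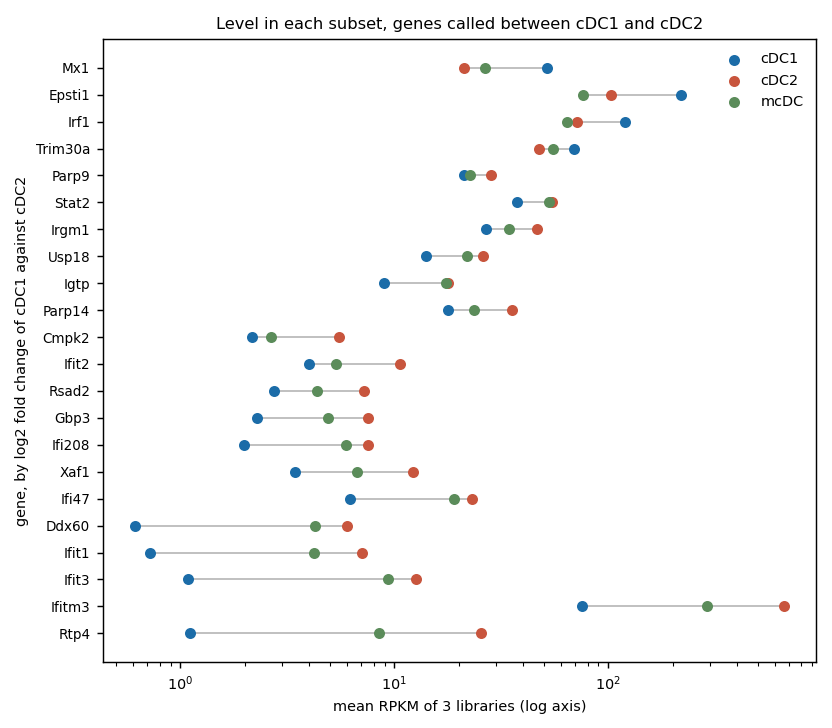
Mean RPKM (log axis) of 3 libraries in cDC1, cDC2 and mcDC for the 22 members called between cDC1 and cDC2, ordered by their log2 fold change. The mcDC mean lies between the others in all 18 members lower in cDC1, and beyond cDC2 for Irf1 and Epsti1.

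The spread of mcDC libraries was not even across members. In mcDC replicate 3, the shallowest library with 5.14 M reads, Ifit3, Ifi208, Gbp2, Bst2 and Ifi35 were the highest of the subset and Isg15, Herc6, Samd9l and Ddx60 the lowest. The former have gene lengths of 766 to 2987 bases. Of the latter, Herc6, Samd9l and Ddx60 have 5279 to 5994 bases and Isg15 has 756. These members are examples, and others did not follow this split of lengths. Mx1, Sp100 and Trim30a, with 4336, 3839 and 3770 bases, were also highest in mcDC replicate 3. Rtp4, with 1573 bases, was lowest there, as were the longer Adar (6187) and Parp14 (7251). That library also had 12.35% of genes at 0, against 2.71% to 6.47% in the others. The part of gene length or library quality in these values was not tested. Ifi35 was 62.1, 68.4 and 122 RPKM in mcDC replicates 1 to 3 and Herc6 was 13.3, 11.9 and 4.08. The summed levels of the macrophage and NK cell genes were also highest in that library. Of the genes in these sums, Adgre1, Mertk, Cd163, Timd4 and Ncr1 were not highest there, and the rest were. Their part in these values was not tested. Replicates 1, 2 and 3 follow the runs of titles. Replicate 1 was the lowest of its group in all 3 subsets for 7 members (Irf7, Irf9, Ifi35, Trim30a, Iigp1, Irgm1 and Lgals3bp), where 12.3% of all genes tested did so. Replicate 3 was the highest in all 3 for 8 members, where 11.2% of all genes did so. Lgals3bp, a secreted glycoprotein, was 22.8, 30.2 and 39.6 RPKM in cDC1, against 38.7, 45.9 and 62.2 in cDC2 and 31.4, 35.4 and 59.3 in mcDC.

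Other genes of the interferon pathway were read in the same fit. Of 80 tested, 32 were lower (10.7% of all genes) and 13 higher (8.85%) in cDC1 than in cDC2. In mcDC against cDC1 16 were higher (9.53%) and 9 lower (5.88%). In mcDC against cDC2 4 were lower (1.6%) and 2 higher (2.06%), and 15 were called with the run as a block (6.46%). With cDC2 replicates 2 and 3 left out the calls in the 3 comparisons were 17, 21 and 0, where 5.61%, 9.15% and 0.0673% of all genes were called. Among the receptor chains, Ifnar2 was 15.4, 16.7 and 17.1 RPKM in cDC1, against 37.9, 37.1 and 37.5 in cDC2 and 31.4, 28.0 and 29.3 in mcDC. Its cDC1 libraries were below every other library (log2 fold change -1.15 ± 0.10, adjusted p = 5.7e-05). Its partner Ifnar1 was 31.3, 29.8 and 28.6 RPKM in cDC1, against 34.9, 35.2 and 33.7 in cDC2 and 35.2, 29.1 and 29.8 in mcDC, with a difference that was not called (log2 fold change -0.21 ± 0.11, adjusted p = 0.25). Ifngr1, the ligand-binding chain for interferon gamma, was 339, 383 and 356 RPKM in cDC1, against 303, 283 and 285 in cDC2 and 229, 207 and 209.8 in mcDC, lower in mcDC than in cDC1 (log2 fold change -0.74 ± 0.11, adjusted p = 0.0018). Ifngr2 was lower in cDC1 than in cDC2 (log2 fold change -0.43 ± 0.11, adjusted p = 0.02), as was Il10rb (log2 fold change -0.57 ± 0.14, adjusted p = 0.017), while Ifnlr1, the specific chain of the lambda receptor, was higher at 3.73 to 4.59 RPKM against 0.441 to 0.705 (log2 fold change 1.71 ± 0.38, adjusted p = 0.01). The call for Ifngr2 was lost without cDC1 replicate 1 or 3 or cDC2 replicate 2 or 3 (adjusted p 0.067 to 0.09), and that for Il10rb without cDC1 replicate 2 or 3 or cDC2 replicate 1 (0.06 to 0.073). Quantile normalization also ended the calls for Ifngr2 (adjusted p = 0.054) and Il10rb (adjusted p = 0.06), and a pseudocount of 0.1 that for Ifnlr1 (adjusted p = 0.081). None of these 3 was called without cDC2 replicates 2 and 3 (adjusted p 0.14 to 0.48).

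Downstream of the receptors, Tyk2 was 77.1, 94.2 and 77.8 RPKM in cDC1, against 45.9, 47.4 and 46.5 in cDC2 and 59.4, 68.5 and 54.7 in mcDC, higher in all cDC1 libraries (log2 fold change 0.82 ± 0.12, adjusted p = 0.0012), with an adjusted p of 0.066 without cDC2 replicates 2 and 3. Jak1, Jak2 and Stat3 were not called in any comparison without the block. The feedback inhibitor Socs3 was 4.77, 2.83 and 5.07 RPKM in cDC1, against 20.8, 26.9 and 30.1 in cDC2 and 11.9, 7.39 and 18.5 in mcDC, lower in cDC1 (log2 fold change -2.38 ± 0.30, adjusted p = 0.00047), and the phosphatase gene Ptpn6 was lower as well (log2 fold change -1.50 ± 0.14, adjusted p = 8.3e-05). Socs1, the main inhibitor of the interferon gamma receptor kinases, was higher in cDC1 (log2 fold change 0.73 ± 0.19, adjusted p = 0.022), a call lost without cDC1 replicate 2 or 3 or cDC2 replicate 2 (adjusted p 0.065 to 0.1), or without cDC2 replicates 2 and 3 together (adjusted p = 0.32). Ifng itself was 1.28, 0.600 and 1.88 RPKM in cDC1, against 0.629, 0.932 and 1.99 in cDC2 and 2.71, 3.86 and 12.5 in mcDC, highest in mcDC without a call (log2 fold change 1.51 ± 0.46, adjusted p = 0.057 for mcDC against cDC1). The NK cell genes summed to 67.9, 107 and 165 RPKM in mcDC replicates 1, 2 and 3, and their part in the Ifng values was not tested. Of 7 type I ligand genes listed, Ifnk was the one in the table, and it was too low to test.

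**Figure D5:**
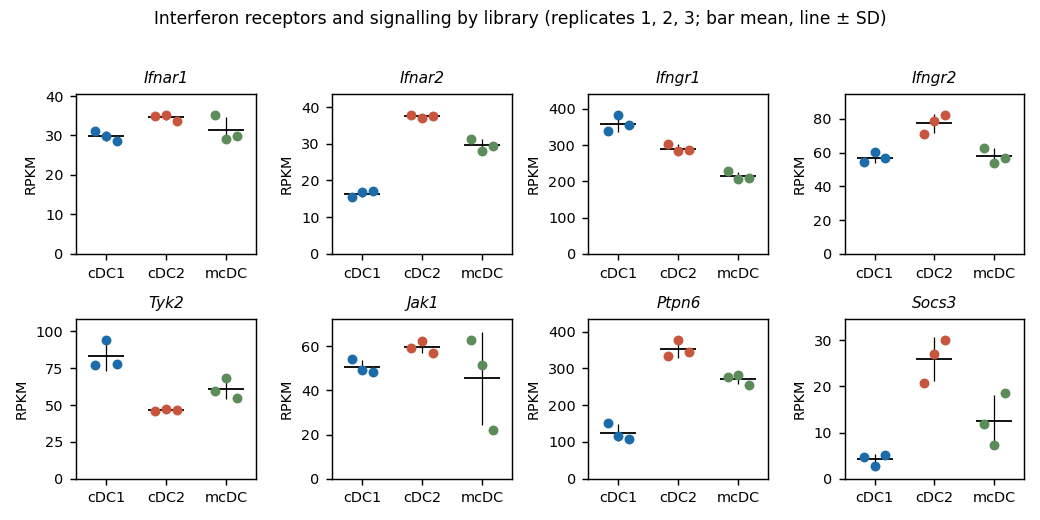
RPKM of interferon receptor chains, kinases, Ptpn6 and Socs3 in each library, by subset, with points for replicates 1, 2 and 3, a bar at the mean and a line of ± 1 SD. Ifnar2, Ptpn6 and Socs3 are lowest in the cDC1 libraries and Tyk2 is highest there, while the Ifnar1 points lie close together in all subsets.

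Of the 80 pathway genes tested, 58 were further interferon stimulated genes, so their calls are part of the pathway counts given above. Of these 58, 27 were lower and 9 higher in cDC1 than in cDC2, where 10.7% and 8.85% of all genes were. Oas2, a sensor of double-stranded RNA, was 0.941, 0.252 and 0.0782 RPKM in cDC1, against 21.8, 25.8 and 28.1 in cDC2 and 13.6, 9.62 and 16.7 in mcDC (log2 fold change -4.24 ± 0.26, adjusted p = 7e-06). Ifitm1, a relative of Ifitm3, was 2.27, 3.32 and 4.66 RPKM in cDC1, against 25.0, 38.2 and 64.0 in cDC2 and 36.9, 39.2 and 98.7 in mcDC, lower in cDC1 (log2 fold change -3.23 ± 0.42, adjusted p = 0.00054). The chemokine gene Cxcl9, a strong interferon gamma target, was 81.6, 105 and 125 RPKM in cDC1, against 7.33, 6.30 and 7.22 in cDC2 and 5.06, 9.34 and 18.2 in mcDC, higher in cDC1 (log2 fold change 3.70 ± 0.35, adjusted p = 8.2e-05). Differences in both directions were thus called within this longer list as within the 40 members.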

How the data were processed

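RNA of sorted spleen cells was sequenced in 9 libraries, 3 each of cDC1, cDC2 and mcDC, after a directional library preparation, per the labels' protocols. The authors deposited RPKM for 14862 genes in 1 table, and 8 single-library files held the same values, while a file for mcDC replicate 3 was not used here. No file states its unit, and RPKM was inferred because the steps between values gave whole reads (within 0.002) for 100% of nonzero values. The submitters' processing notes list genome build mm8, and no aligner, counting tool, strand setting or annotation is given in the sources used here. Depth was 5.14 to 12.43 M reads. There were 0 columns of other samples.

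The members and the gene lists were chosen with earlier results of these data known, so counts over them are descriptions. Every member could be named, with marker genes, receptors, signalling genes and up to 6 other pathway genes of the highest level or largest change; Ifit3b was added after its values were seen. Differences were tested with limma 3.58.1 (R 4.3.3) on log2(RPKM + 1), pseudocount 1, in 1 fit of all 9 libraries with a trend, over 11971 genes above 1 RPKM in at least 2 libraries, with Benjamini-Hochberg adjustment over all of them and a threshold of 0.05; residual degrees of freedom were 6. The procedure was tested on simulated data in which libraries of a title run shared no effect, so that test does not bear on such effects. Counts of any pair of same-subset libraries differed beyond sampling noise (chi-square per degree of freedom 10.4 to 65.8), so none was a repeat deposit. Gene numbers were matched to RefSeq (GRCm38.p6) for 14847 genes, and promoter windows come from the same build.

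Whether title runs pair the libraries was checked by correlating deviations from the group means over 8358 genes above a mean of 5 RPKM. The 3 same-run pairs correlated at 0.17 to 0.48 for cDC1 and cDC2, 0.24 to 0.55 for mcDC and cDC2 and 0.071 to 0.43 for mcDC and cDC1, against -0.55 to 0.014 in the 18 pairs of other runs. Deviations from a group mean cancel within the group, so higher same-run values bring lower ones in other runs, and this contrast is partly built in. All pairs of the first 2 comparisons were above 0.1, so blocked values stand beside their results; this pairing comes from the data, and what a run has in common is not labelled. The 20 alternatives were quantile normalization, median-of-ratios scaling, no filter, a filter of 5 RPKM, a pseudocount of 0.1, the compared groups alone, no trend, the title run as a block (with and without mcDC replicate 3), voom on recovered reads, each library left out, and, chosen after seeing the data, cDC2 replicates 2 and 3 left out. Python 3.11.15, pandas 2.3.3, numpy 2.4.6 and matplotlib 3.10.9 served for tables and figures.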

Additional observations from a re-analysis of the deposited data

How the results depend on the processing

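No gene reversed its direction with a call in any of the 20 alternatives, while 80 sign changes occurred among values called in neither fit. Calls held under all alternatives for 8 of the 22 members called between cDC1 and cDC2, 9 of 15 between mcDC and cDC1, and 0 of 2 between mcDC and cDC2. Counts of members called ranged with 1 library left out from 18 to 26 (22 as reported) for cDC1 against cDC2, from 9 to 17 (15) for mcDC against cDC1 and from 0 to 7 (2) for mcDC against cDC2. The same ranges for the pathway genes were 33 to 52 (45), 18 to 36 (25) and 3 to 8 (6), the lowest of these reached without any 1 cDC1 library or without cDC2 replicate 2 or 3. With 1 library left out, the share of all genes called also moved, from 13% to 29.4% for cDC1 against cDC2. It went from 7.99% to 22% for mcDC against cDC1 and from 1.32% to 7.56% for mcDC against cDC2. With cDC2 replicates 2 and 3 left out, which leaves 1 cDC2 library, the members called were 8, 9 and 0, and the pathway genes 17, 21 and 0. For mcDC against cDC1, 9 members were called under quantile normalization (15.1% of all genes) and 9 with the groups compared alone (9.28%). For mcDC against cDC2 the members called were 4 with median-of-ratios scaling, 1 with a pseudocount of 0.1, 1 with the groups compared alone and 6 with voom. Of all genes, 3.7%, 3.13%, 2.15% and 3.67% were called in these fits, in that order. The pathway genes called were 3 with the groups alone and 11 with voom. Why these counts moved was not tested, beyond the fewer libraries in some fits.

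With the title run as a replicate block, members called were 26, 18 and 6, and pathway genes 52, 37 and 15; with the block and without mcDC replicate 3 they were 30, 21 and 10, and 57, 44 and 16. Of all genes, 24.6%, 20.7% and 6.46% were called with the block, and 36.2%, 25.4% and 6.08% with the block and without that library. For mcDC against cDC1 the members added with the block were Irgm1 (adjusted p = 0.041), Sp100 (0.033) and Lgals3bp (0.024), and Ifng (0.0087) and Jak2 (0.024) were called among pathway genes named here. The block ended no member's call.

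Depth was lowest in mcDC, where a single read over 1 kb equalled up to 0.194 RPKM, and scarce members such as Iigp1, Ifi44 and, in cDC1, Rtp4 rested on 5, 9 and 7 reads in their lowest library.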
